A study of Mus musculus with 4 samples.

Results

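The COP9 signalosome is the enzyme complex that removes the ubiquitin-like protein NEDD8 from cullins, the scaffolds of cullin-RING ubiquitin ligases. Its 10 subunit genes, Gps1 (subunit 1 of the complex), Cops2, Cops3, Cops4, Cops5, Cops6, the paralogues Cops7a and Cops7b, Cops8 and Cops9, were followed among the 12486 genes of a PRO-seq count table. The complex was chosen by the fall of Cops9 in the comparison described here, so the Cops9 values are given as a description with no test. The other 9 genes were taken because they encode the remaining subunits, whatever their values.

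PRO-seq lets engaged RNA polymerase extend its transcript briefly in isolated nuclei with labelled nucleotides, so a count reports nascent transcription of a gene and not the amount of its mRNA. The cells were diploid mouse embryonic stem cells of the line AN3-12 in which Zfp574, a zinc finger protein, carried an auxin-inducible degron (AID) and which also expressed the plant auxin receptor OsTir1. Both groups therefore carried the same alleles, an N-terminal V5 and AID tag on Zfp574 placed by Cas9 knock-in with a blasticidin marker, and the receptor cassette driven by the EF1alpha promoter. Knock-in lines were picked as individual clones, so the libraries may describe a single clone. The control group was untreated (0 h), and the depletion group received 500 µM of the auxin indole-3-acetic acid (IAA) for 6 h, so loss of Zfp574 and exposure to auxin cannot be told apart in these 4 libraries. There were 2 biological replicates per group, with library totals of 3298864 and 3616429 counts in control and of 6045216 and 5670904 after depletion.

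The signalosome is built from subunits with a PCI domain (Gps1, Cops2, Cops3, Cops4, Cops7a or Cops7b, and Cops8), which form a horseshoe-shaped scaffold, and from a pair of subunits with an MPN domain. Cops5 is the MPN subunit that holds the zinc-dependent active site, and Cops6 is its catalytically inactive partner. Cops9, also known as CSNAP, is a small acidic subunit that has neither domain and lies bound to the assembled complex. Removal of NEDD8 switches a cullin-RING ligase off and frees the cullin to exchange its substrate receptor. The proteasome lid and the translation initiation factor eIF3 are built from PCI and MPN subunits in a related architecture.

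Zfp574 itself was read first. Its gene was read 80 and 130 times in control and 195 and 219 times after depletion, with a log2 fold change of depletion over control of 0.25 ± 0.14 (SE). This did not pass the test (adjusted p = 0.406, edgeR quasi-likelihood test). Without control replicate 2 the value was 0.57 and passed (adjusted p = 0.0293, edgeR). The degron acts on the protein, whose level is not part of a PRO-seq count. All 10 stem cell markers examined, among them Pou5f1 and Nanog, passed the count filter and none passed the test at an adjusted p under 0.05. Of 14 markers of other cell types (endoderm, mesoderm, neuroectoderm, trophoblast and fibroblasts), 6 were in the table, 3 passed the filter (Sox1, Gata3 and Pax6) and none of these passed the test.

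Cops9 lies on chromosome 1 from 92637145 to 92641985 on the minus strand (mm10, GENCODE M21; ENSMUSG00000073616) and spans 4.84 kb. Control libraries held 39 and 24 counts of Cops9, and depletion libraries held 6 and 11. In CPM, counts scaled to the TMM-adjusted library total, these were 11.7 and 6.55 in control and 1.01 and 1.96 after depletion. The depletion libraries were both lower than either control, although they were the more deeply sequenced. In CPM, though not as a ratio, the control libraries stood further apart than the depletion libraries. The exact 95% Poisson intervals of the single libraries cover counting error only. In the control they ran from 8.33 to 16 CPM and from 4.2 to 9.75 CPM. After depletion they ran from 0.370 to 2.19 CPM and from 0.977 to 3.5 CPM. They describe the precision of single libraries and are no test, since Cops9 was chosen for this difference. The group means were 9.14 ± 3.66 CPM (SD, n = 2) and 1.48 ± 0.672 CPM, which the fit expressed as a log2 fold change of -2.60 ± 0.37 (SE), or 6.04-fold lower. In bulk libraries like these, fewer cells transcribing a gene and less transcription per cell cannot be told apart. Averaged over all 4 libraries, and so with the fall included, 91.0% of the tested genes had a higher CPM than Cops9. In the control its mean was close to that of Cops6 (8.60 CPM), which 83.6% of genes exceeded over the 4 libraries.

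The start of Cops9 is shown here with those of Cops3 and Sem1, so that the short words searched for can be read in place. Promoter windows of 300 bases, 250 before and 50 after the annotated start, came from RefSeq (GRCm38.p6), in which 9 of the 10 subunit genes matched an entry by symbol and Cops5 did not. Windows of 9297 tested genes were searched on both strands for the ETS core CCGGAAGT and for the 7 letters CATAGAG, which were picked after the promoters of falling genes had been inspected. A further 5 common promoter words were searched and are summarised after the sequences. Cops9 (chr1:92641936-92642235, minus strand, 58.3% G and C) is followed by Cops3 (chr11:59839718-59840017, minus strand, 57.0% G and C), the only other subunit gene with the ETS core. The last is Sem1 (chr6:6578609-6578908, minus strand, 45.3% G and C), a proteasome lid gene that also fell. The capitals mark CCGGAAGT or CATAGAG alone, as read on either strand.
Cops9: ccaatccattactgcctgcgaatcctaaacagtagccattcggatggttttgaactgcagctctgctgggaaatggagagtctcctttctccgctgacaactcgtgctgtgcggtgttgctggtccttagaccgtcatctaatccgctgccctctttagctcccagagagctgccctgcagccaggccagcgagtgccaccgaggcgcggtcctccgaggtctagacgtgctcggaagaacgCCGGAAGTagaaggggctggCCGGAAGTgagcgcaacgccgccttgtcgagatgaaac
Cops3: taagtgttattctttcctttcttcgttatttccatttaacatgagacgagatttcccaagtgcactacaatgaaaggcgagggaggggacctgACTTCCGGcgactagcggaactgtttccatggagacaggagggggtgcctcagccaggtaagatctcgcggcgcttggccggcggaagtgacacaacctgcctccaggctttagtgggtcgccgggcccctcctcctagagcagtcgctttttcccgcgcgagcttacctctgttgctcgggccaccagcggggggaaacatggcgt
Sem1: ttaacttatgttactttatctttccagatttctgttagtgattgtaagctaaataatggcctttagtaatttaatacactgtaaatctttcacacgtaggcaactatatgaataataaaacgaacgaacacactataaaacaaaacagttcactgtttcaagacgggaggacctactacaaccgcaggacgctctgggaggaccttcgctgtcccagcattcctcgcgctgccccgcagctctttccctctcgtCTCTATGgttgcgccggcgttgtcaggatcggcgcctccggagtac

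In the Cops9 window the ETS core began 8 bases before the start and again 13 bases after it, both times on the strand of the gene. The pair sat on either side of that start, at 92641985. RefSeq also lists a start of Cops9 at 92641948, which is 37 bases further downstream, and both cores lie before it. In Cops3, whose counts did not fall, the core lay 157 bases before the start on the opposite strand. CCGGAAGT was in 8.92% of the 9297 windows, in 2 of the 9 subunit windows and in 6 of the 34 windows (17.6%) found for the 38 genes called lower at 2-fold. The subunit and the called-lower counts both include Cops9, the gene that chose the complex. CATAGAG was in 2.24% of all windows, in 12 of those 34 (35.3%, the list on which it was picked) and in none of the 9 subunit windows, Cops9 included. In Sem1 it began 5 bases after the start, on the strand opposite to the gene. Of the other words, the GC box GGGCGG was in 5 of the 9 subunit windows, beside 66.27% of all windows and 47.1% of those of the genes called lower. CCAAT was in 2 of the 9 (one of them Cops9, at the far end of its window, 250 bases before the start), beside 38.97% of all and 17.6% of those of the genes called lower. AAGATGGC, the YY1 word, was in 1 (4.99% of all), and TATAAA (6.81%) and the NRF1 word GCGCATGC (5.88%) were in none of the 9. The Sem1 window held TATAAA upstream of the start. The Cops8 window lay around a RefSeq start 444 bases downstream of its GENCODE start, inside the annotated gene. The corrected starts that the authors used are not in these windows, and a word says nothing of binding.

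Among the PCI subunits, Cops8 was lower after depletion. Cops8 (chromosome 1, 90602981 to 90613341, plus strand) had 355 and 397 counts in control against 528 and 473 after depletion. These corresponded to 107 and 108 CPM against 88.7 and 84.2 CPM, and the groups did not overlap. The log2 fold change was -0.31 ± 0.08 (SE; 95% interval -0.47 to -0.16), or 1.24-fold lower, with an adjusted p of 0.0232 in the edgeR quasi-likelihood test over 11853 genes. The difference was small and the call was not stable. It was lost in DESeq2 (adjusted p = 0.728), in DESeq2 with size factors recovered from the deposited table (0.0746), without control replicate 2 (0.0634, edgeR), without depletion replicate 1 (0.121) and without depletion replicate 2 (0.278). The log2 fold change stayed between -0.42 and -0.28 throughout.

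Gps1, a scaffold PCI subunit, lies on chromosome 11 from 120784272 to 120789102 on the plus strand. It had 70 and 79 counts in the control and 102 and 93 after depletion, or 21.04 and 21.56 CPM against 17.1 and 16.6 CPM. The groups did not overlap here either, but the log2 fold change of -0.34 ± 0.16 (SE; 95% interval -0.66 to -0.02) did not pass (adjusted p = 0.280, edgeR quasi-likelihood test). Its estimate was as large as that of Cops8, on far fewer counts and with a wider error. Under 13 other settings it ran from -0.44 to -0.31 and passed in none.

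The remaining PCI subunits differed between groups by no more than their replicates did. Cops2 (chromosome 2, 125830304 to 125859139, minus strand), which contacts the bound cullin, had 86.6 and 109 CPM in the control and 94.4 and 92.4 CPM after depletion. Its log2 fold change was -0.08 ± 0.09 (SE; 95% interval -0.26 to 0.11). Both depletion libraries fell between the 2 control libraries. Cops3 (chromosome 11, 59817795 to 59839838, minus strand), the most highly counted subunit gene, had 128 and 134 CPM against 138 and 131 CPM, a log2 fold change of 0.04 ± 0.07 (95% interval -0.11 to 0.18). Cops4 (chromosome 5, 100518309 to 100547803, plus strand), a scaffold subunit that helps the complex sense its cullin substrate, had 31.2 and 35.5 CPM against 30.2 and 33.6 CPM. Its log2 fold change was -0.07 ± 0.13 (95% interval -0.33 to 0.19). Adjusted p-values for Cops2, Cops3 and Cops4 in the edgeR quasi-likelihood test were 0.739, 0.863 and 0.848.

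The paralogues Cops7a and Cops7b, of which a complex holds one, are on chromosome 6 (124958413 to 124965538, minus strand) and chromosome 1 (86582904 to 86609375, plus strand). Cops7a had 51.1 and 42.0 CPM in the control and 44.0 and 50.2 CPM after depletion, a log2 fold change of 0.02 ± 0.11 (SE; 95% interval -0.21 to 0.25). Cops7b had 23.1 and 27.3 CPM against 25.5 and 27.1 CPM, a log2 fold change of 0.05 ± 0.14 (95% interval -0.23 to 0.34). The groups overlapped for both genes, with adjusted p-values of 0.961 and 0.902 in the edgeR quasi-likelihood test. Per kilobase of annotated gene span, Cops7a stood higher in the control, at 6.53 ± 0.899 CPM per kb (SD, n = 2) against 0.953 ± 0.111 CPM per kb for Cops7b. The gap was smaller in CPM, at 46.6 ± 6.4 against 25.2 ± 2.94. The annotated span can differ from the stretch that was counted.

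The catalytic MPN subunit Cops5 (chromosome 1, 10024601 to 10038168, minus strand) had 90 and 97 counts in the control and 182 and 159 after depletion. In CPM both depletion libraries, at 30.6 and 28.3, lay above both control libraries, at 27.1 and 26.5. The log2 fold change of 0.14 ± 0.13 (SE; 95% interval -0.13 to 0.41) did not pass (adjusted p = 0.663, edgeR quasi-likelihood test). Its MPN partner Cops6 (chromosome 5, 138161071 to 138164646, plus strand) had 30 and 30 counts in the control against 49 and 49 after depletion. In the control its mean of 8.60 CPM was the lowest of the subunit genes, just below Cops9 at 9.14 CPM. The log2 fold change of Cops6 was -0.02 ± 0.23 (95% interval -0.49 to 0.45; adjusted p = 0.982, edgeR). The intervals leave room for a change of Cops6 by about the size seen for Cops8 or Gps1, which was not detectable at this depth.

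**Figure D1:**
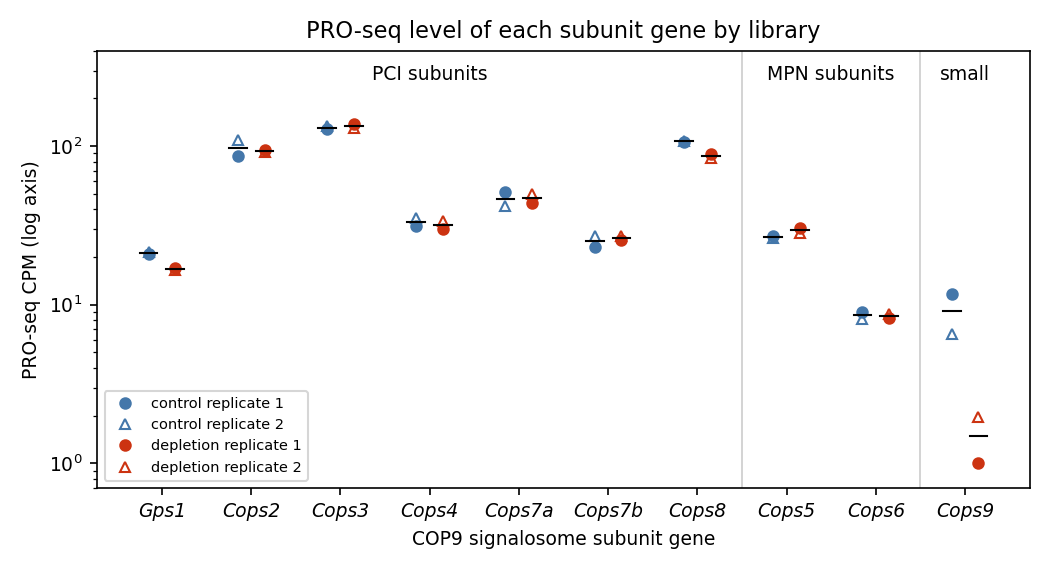
PRO-seq level of the 10 subunit genes (x axis, grouped by domain) in CPM on a log axis, with 1 symbol per library (blue, control; red, depletion) and a black line at each group mean. The 2 depletion libraries of Cops9 sit at 1.01 and 1.96 CPM, below the control libraries at 6.55 and 11.7 CPM, while the group means of the other 9 genes lie close together.

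Of the 9 subunit genes other than Cops9, 1 was lower at an adjusted p under 0.05 (Cops8) and 0 were higher. Of all 11853 genes tested, 1.4% were lower and 1.11% higher. With Cops9 counted, 2 of 10 subunit genes were lower. The 9 genes other than Cops9 had a median log2 fold change of -0.02, beside -0.0021 for all genes. Of these 9, 5 had a value below 0, as did 50.6% of all genes; with the recovered size factors, which lower all genes alike, every one of the 9 but Cops5 was below 0. The 2-fold rule called 1 subunit gene lower, Cops9, beside 0.321% of all genes. As Cops9 chose the complex, nothing is read from its place in these counts. By library order, depletion was below control in every library pair for 3 of the 10 (Gps1, Cops8 and Cops9), beside 22.9% of all genes, and above both for 1 (Cops5), beside 23.4%. The summed CPM of the 9 genes was 484 and 513 in the control and 476 and 472 after depletion.

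All 10 subunit genes passed the filter on low counts. The 7 genes other than Cops9, Cops8 and Gps1 had log2 fold changes within 0.14 of 0. For the 9 genes together, standard errors ran from 0.07 (Cops3) to 0.23 (Cops6), and the widest limits of their 95% intervals were -0.66 and 0.45, so none had an interval that reached a 2-fold change.

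Compared per kilobase of annotated gene span, the control levels ran from 10.4 ± 0.116 CPM per kb (SD, n = 2) for Cops8 down to 0.953 ± 0.111 for Cops7b. Between these came, in order, Cops7a, Cops3, Gps1, Cops2, Cops6, Cops5, Cops9 and Cops4. Cops9, at 1.89 ± 0.755 CPM per kb, was thus within the range of the complex in the control. Its libraries (2.42 and 1.35) spanned those of Cops5 (1.99 and 1.95) and reached into those of Cops6 (2.52 and 2.29), so its place among these 3 was not settled. Likewise the libraries of Cops7a (7.17 and 5.90) overlapped those of Cops3 (5.81 and 6.08). After depletion the order of the other 9 was kept, and Cops9 stood last at 0.306 ± 0.139 CPM per kb, with no overlap with Cops7b at 0.993 ± 0.0406. The order depends on division by length, since in CPM Cops3 was highest in the control, at 131.

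Subunit genes of the related complexes were read in the same fit. These lists were chosen with earlier results of these data known, so the shares beside them are a description and no test. In the proteasome lid, 1 of 9 genes passed the test, and it was lower, beside 1.4% of all genes. This was Sem1, which encodes the small acidic lid subunit without a PCI or MPN domain (chromosome 6, 6557294 to 6578663, minus strand). Sem1 had 187 and 188 counts in control against 196 and 160 after depletion, or 56.2 and 51.3 CPM against 32.9 and 28.5 CPM, without overlap. Its log2 fold change was -0.80 ± 0.11 (SE; 95% interval -1.04 to -0.57), or 1.74-fold lower (adjusted p = 4.59e-05, edgeR quasi-likelihood test). The longest annotated coding sequences had 70 codons in Sem1 and 100 in Cops9. In the other 9 signalosome genes they had 209 (Cops8) to 526 (Gps1). That of Eif3g, the eIF3 gene that fell (below), had 320 codons. Coding lengths of the other lid and eIF3 genes were not compared. The other lid genes ran up to 0.12 for Psmd14, the catalytic lid subunit and counterpart of Cops5.

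In eIF3, 1 of 13 genes passed, and it was lower, beside 1.4% of all genes. It also passed the 2-fold rule, beside 0.321% of all genes called lower by that rule. Eif3g, which encodes an RNA-binding subunit outside the PCI and MPN core (chromosome 9, 20894349 to 20898623, minus strand), had 55 and 57 counts in the control and 34 and 41 after depletion. In CPM these were 16.5 and 15.6 against 5.71 and 7.30, again without overlap. The log2 fold change was -1.30 ± 0.21 (SE; 95% interval -1.73 to -0.87), with an adjusted p of 0.000239 in the edgeR quasi-likelihood test. Sem1 and Eif3g kept their calls under every setting that tested them. Median log2 fold changes were -0.05 over the lid and -0.09 over eIF3, beside -0.04 over the 10 signalosome genes and -0.02 without Cops9.

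**Figure D2:**
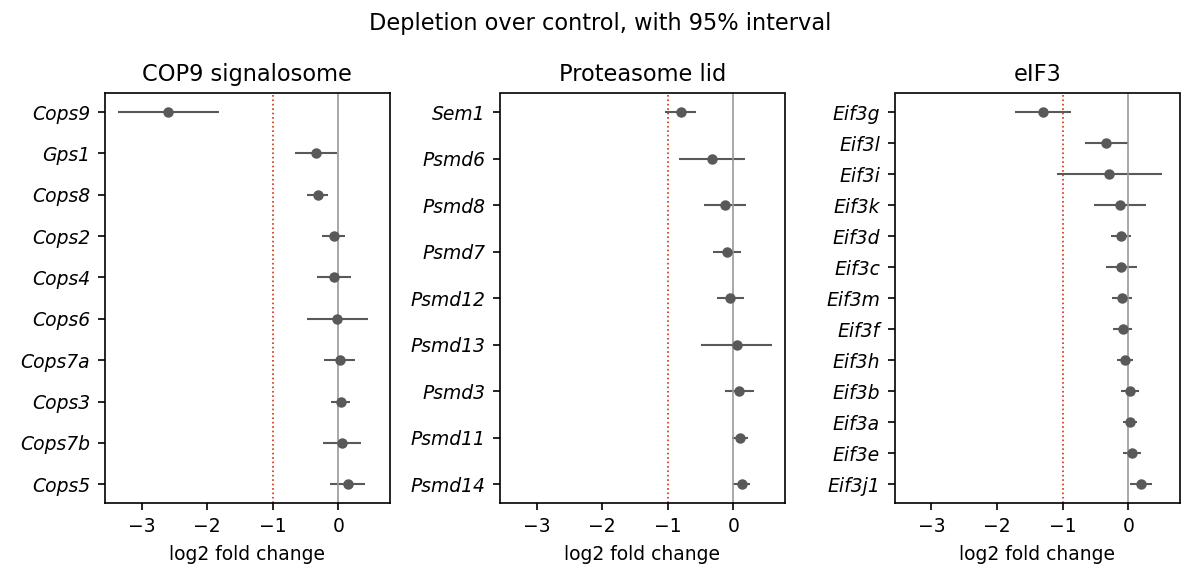
Log2 fold change of depletion over control (x axis) for each subunit gene of the signalosome, the proteasome lid and eIF3, with points for the estimate and bars for the 95% interval; the solid line is 0 and the dotted line a 2-fold fall. Cops9 (-2.60), Sem1 (-0.80) and Eif3g (-1.30) are the lowest genes of the 3 panels.

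The substrates of the signalosome did not pass the test. Of 10 cullin and RING genes, 0 were lower and 0 higher, with a median log2 fold change of 0.07. Cul1, scaffold of the SCF ligases, had 468 and 577 counts in the control and 942 and 883 after depletion (log2 fold change 0.08 ± 0.07 SE). Cul3, scaffold of the BTB-domain ligases, had 691 and 851 against 1439 and 1384 (0.15 ± 0.06), and Cul4b had 711 and 898 against 1505 and 1461 (0.16 ± 0.06), the highest of the list. These 2 passed without control replicate 2 (adjusted p = 0.0449 for Cul3 and 0.0143 for Cul4b, edgeR). Cul2 stood at 0.14 ± 0.09, Cul4a at -0.04 ± 0.10, Cul5 at -0.0037 ± 0.07, and the lowest, Cul7, at -0.08 ± 0.15. Rbx1, the RING subunit shared by most cullins, had 342 and 361 counts against 619 and 593 (0.06 ± 0.08). Adjusted p-values in the edgeR quasi-likelihood test ran from 0.204 for Cul4b to 0.987 for Cul5. Of these values, those of Cul1 and Rbx1 turned below 0 with the recovered size factors, with which all genes had a median of -0.11 in place of -0.0021.

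The modifier and the enzymes that attach or remove it also did not pass. None of 12 neddylation and deneddylation genes was called in either direction (median 0.03). Nedd8 had 49 and 54 counts in the control and 67 and 80 after depletion, a log2 fold change of -0.21 ± 0.19 (SE; adjusted p = 0.638, edgeR quasi-likelihood test). The limits of the list were Senp8, a protease that processes and removes NEDD8, at -0.31 ± 0.20 (37 and 46 counts against 58 and 53), and Ube2m, a NEDD8-conjugating enzyme, at 0.39 ± 0.19 (44 and 42 against 103 and 84). Neither passed, with adjusted p-values of 0.495 and 0.294 in the same edgeR test. Of 13 cullin adaptors and exchange factors none passed, with values from -0.23 for Cdc34 to 0.15 for Arih1. In edgeR, Cdc34 passed with the recovered size factors (adjusted p = 0.0204) and Arih1 with replicate as a block (0.0374). Cand1, which exchanges substrate receptors on cullins free of NEDD8, had 840 and 1026 counts against 1550 and 1549, a log2 fold change of 0.01 ± 0.06 (adjusted p = 0.973, edgeR).

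Among 26 substrate receptors none passed, and 19 had a value below 0, beside 50.6% of all genes (median -0.06). Their values ran from -0.37 ± 0.20 (SE) for Det1 (adjusted p = 0.375, edgeR quasi-likelihood test) to 0.21 ± 0.15 for Klhl20 (0.548). Fbxo5, an inhibitor of the anaphase-promoting complex, was named after its values were seen. It had 75.1 and 68.0 CPM in control against 57.0 and 56.4 CPM after depletion, a log2 fold change of -0.33 ± 0.09 (adjusted p = 0.0557, edgeR), and passed under 6 of the alternative settings. Of 14 listed regulators associated with the complex, 12 were in the table, and 1 passed, beside 1.11% higher and 1.4% lower of all genes tested. Itpk1, an inositol phosphate kinase found with the signalosome, was higher, at 1402 ± 18.5 CPM (SD, n = 2) in the control and 1611 ± 42.3 CPM after depletion. Its counts were 4620 and 5183 against 9414 and 9222. The log2 fold change was 0.20 ± 0.04 (SE; adjusted p = 0.00509, edgeR quasi-likelihood test), the smallest called change described here. It did not pass with the recovered size factors (0.0986, adjusted p = 0.327), in DESeq2 (adjusted p = 0.144), in DESeq2 with the recovered factors (0.824) or in edgeR without depletion replicate 1 (0.0991) or replicate 2 (0.299). The lowest regulator was Ipo9, an importin (204 and 221 counts against 272 and 285), at -0.34 ± 0.10 (adjusted p = 0.0734, edgeR). Ipo9 passed in edgeR with the recovered size factors (adjusted p = 0.0055), in the likelihood ratio test (0.0452) and with replicate as a block (0.032).

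**Figure D3:**
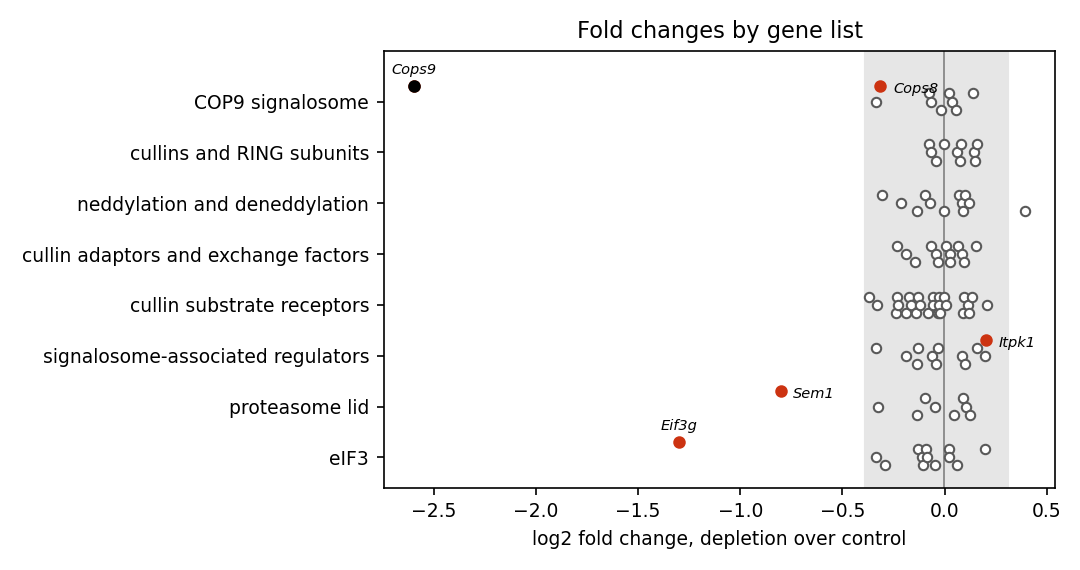
Log2 fold change of depletion over control (x axis) for every tested gene of 8 lists (rows; 1 point per gene, spread vertically for legibility). Red points passed an adjusted p under 0.05 in the edgeR quasi-likelihood test, white points did not, black marks Cops9 (given without a test), and the grey band spans the 5th to 95th percentile of all genes, -0.39 to 0.31.

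Of the calls over all genes at an adjusted p under 0.05, 166 were lower and 132 higher with TMM scaling, so that 44.3% were higher. The split moved with scaling: 24.1% were higher with library totals (64 higher) and 6.56% with the recovered size factors (698 lower, 49 higher). Scaling shifts all genes nearly alike, so values are also given relative to the median of all genes, where the log2 fold change was -2.59 for Cops9, -0.31 for Cops8 and -0.34 for Gps1.

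Neighbouring genes were read for 5 subunit genes that share a divergent start region with a gene in the table, within 1000 bases and on the opposite strand. Rfng, which starts 65 bases from Gps1, had 38 and 44 counts in the control and 75 and 63 after depletion, a log2 fold change of 0.02 ± 0.20 (SE). Its estimate was thus on the other side of 0 from that of Gps1, and neither passed. Galk2 (30 bases from Cops2) stood at 0.01 ± 0.11 and Pde6d (275 bases from Cops7b) at 0.02 ± 0.12. Cspp1, 181 bases from Cops5, stood at -0.03 ± 0.08, and Nt5m, 391 bases from Cops3, at -0.15 ± 0.18. None of these 5 passed, with adjusted p-values from 0.752 to 0.974 in the edgeR quasi-likelihood test. The values of Rfng, Galk2 and Pde6d turned below 0 with library totals and with the recovered size factors. Cops9 shared no start region, and no other tested gene started within 100 kb of it.

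Cops9, Gps1 and Cops7a all belonged to the second length decile of the tested genes (1183 genes, median log2 fold change -0.08), with log2 fold changes of -2.60, -0.34 and 0.02. The length deciles that hold the subunit genes had medians from -0.08 to -0.02, all below the -0.0021 of all genes. A part of gene length in these values was not tested.

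The 5 tested genes whose pattern over the 4 libraries was most like that of Cops9, by Euclidean distance between centred log2 CPM values, were Nek4 (distance 0.634), Jagn1 (0.771), Zkscan8 (0.815), Eef1akmt2 (0.847) and Xrn1 (0.885). Nek4, a protein kinase, had 51 and 48 counts in the control and 15 and 23 after depletion. Jagn1 had 77 and 74 against 27 and 32, and Zkscan8, a zinc finger gene, had 55 and 59 against 8 and 13. Jagn1 encodes a protein of the endoplasmic reticulum membrane. Eef1akmt2, a lysine methyltransferase of elongation factor 1A, had 67 and 65 counts against 23 and 21. Xrn1, the cytoplasmic exonuclease, had 542 and 605 against 140 and 135. Log2 fold changes of the 5 ran from -3.15 (Zkscan8) to -2.08 (Jagn1); that they fell follows from how they were picked.

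Leaving out 1 library at a time moved Cops9 between -3.12 (without depletion replicate 2) and -2.14 (without control replicate 1). The other 2 values were -2.97 without control replicate 2 and -2.18 without depletion replicate 1. These values come from the libraries that chose the complex and are a description of the spread between them.

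**Figure D4:**
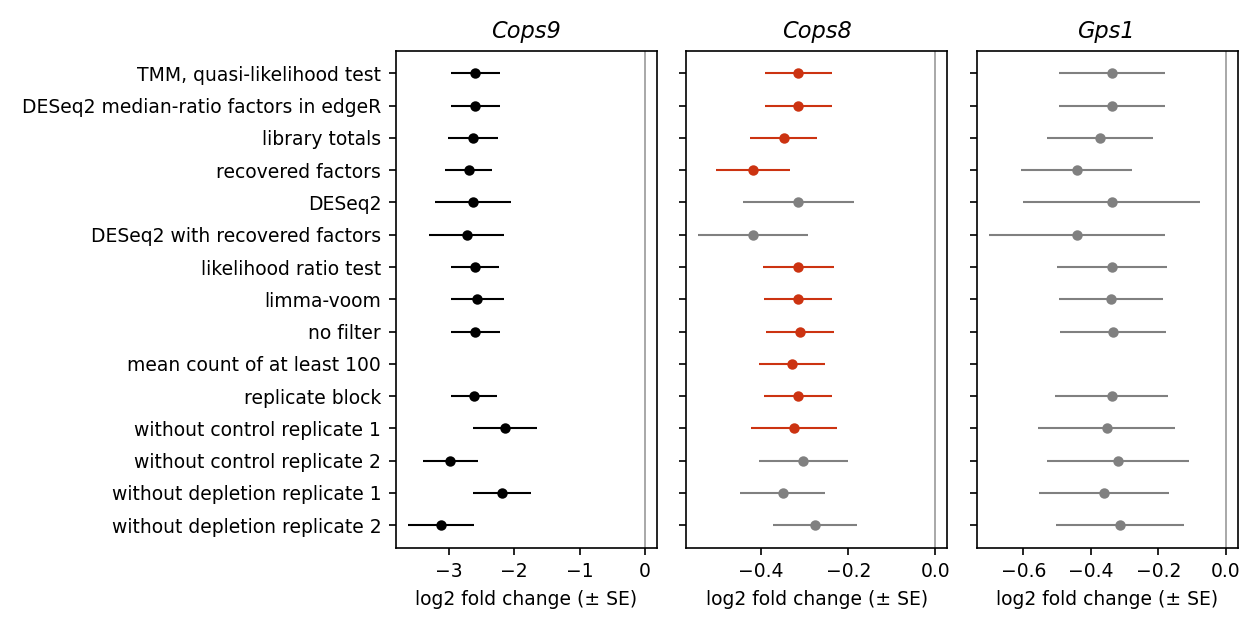
Log2 fold change of depletion over control (x axis) of Cops9, Cops8 and Gps1 under each setting (rows), with bars for the SE; red points passed an adjusted p under 0.05, grey points did not, and Cops9 is in black with no test. Cops9 runs from -3.12 to -2.14, Cops8 from -0.42 to -0.28 and Gps1 from -0.44 to -0.31; Cops9 and Gps1 were not tested at a mean count of at least 100.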

How the data were processed

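PRO-seq reads had been trimmed (cutadapt 1.18), mapped to mm10 with Bowtie 1.2.2 per the submitters' processing notes, kept only where placed uniquely, and collapsed by molecular identifier by the authors. The deposited counts are raw numbers of such reads per gene on its own strand. The authors also deposited a DESeq2 table; its fold changes and p-values were not used. Its mean signal per gene is the mean of the 4 libraries' counts after the authors divided them by size factors, which were recovered from it by regression (0.6993 and 0.7404 in control, 1.325 and 1.2353 after depletion). These differ between replicates, although the methods describe a shared spike-in factor within a condition, and how the authors derived them is not resolved. Drosophila spike-in reads were not used here.

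Genes were filtered with filterByExpr (minimum count 10, minimum total 15), which kept 11853 of 12486, scaled with TMM and tested in edgeR 4.0.16 under R 4.3.3 (quasi-likelihood, two-sided, condition only), with Benjamini-Hochberg adjustment over all tested genes. Standard errors follow from the F statistic. Calls required an adjusted p under 0.05, and where stated a 2-fold change. Alternatives covered scaling, the test (DESeq2 1.42.0, likelihood ratio, limma-voom in limma 3.58.1), the filter, the fold threshold, a replicate block and each library left out. The scripts were tested on simulated data. Positions came from GENCODE M21, which matched 12474 identifiers, and annotated starts can differ from the authors' corrected ones. Replicates differed by more than sampling noise (chi-square per degree of freedom 1.88 in the control and 1.5 after depletion).

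The members and gene lists were chosen with earlier results of these data known. Named were all subunits, Zfp574, the main cullins, Rbx1, Nedd8 and Cand1, called members and both ends of each list, genes with a start within 1000 bases of a subunit start on the opposite strand, and the 5 genes most like Cops9. Other genes were named after their values were seen.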

Additional observations from a re-analysis of the deposited data

How the results depend on the processing

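Cops9 stayed low, at -3.12 to -2.14 on the log2 scale, in the 13 settings that tested it; a mean count of at least 100 left 7 subunit genes, and with it 0 in place of 1 passed the 2-fold rule and 8 in place of 38 of all genes were called lower 2-fold. Subunit genes past the adjusted p numbered 1 in place of 2 there, in DESeq2 and in DESeq2 with the recovered factors, and 1 to 2 with a library left out. Cops8 lost its call in DESeq2 (-0.31), with DESeq2 and the recovered factors (-0.42) and in 3 of 4 leave-one-out fits (-0.35 to -0.28). The cause was not tested. Genes past the adjusted p in the pathway lists, 1 with TMM, numbered 2 with library totals (Fbxo5 and Itpk1) and at a mean count of at least 100, 5 with the recovered factors (Cdc34, Dtl, Fbxo5, Ipo9 and Socs3, all lower), 0 in both DESeq2 fits, 3 in the likelihood ratio test and 0 to 4 with a library left out. Over all genes, 166 lower and 132 higher became 61 and 14 in DESeq2, 110 and 3 in DESeq2 with the recovered factors, 698 and 49 in edgeR with them, and 64 higher with library totals; leaving out a library gave 76 to 227 lower, 20 to 271 higher and 31 to 45 at 2-fold.

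The deviations between replicates had a correlation of 0.03 between the conditions. Whether replicate numbers pair the libraries is not settled by this single value over all genes. The replicate block gave 300 lower and 366 higher calls and 6 pathway genes, and Cops8 passed in it.

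Values near 0 turned sign with scaling. With library totals they were -0.0134 (Cops7a), -0.0099 (Rfng), -0.0204 (Galk2), -0.0133 (Pde6d) and -0.026 (Cand1). With the recovered factors, in edgeR and in DESeq2, they were -0.0683 and -0.0681 (Cops3), -0.0824 and -0.0822 (Cops7a), -0.0493 and -0.0464 (Cops7b), -0.0795 and -0.0803 (Rfng), -0.0898 and -0.0882 (Galk2), -0.0827 and -0.0803 (Pde6d), -0.0246 and -0.0238 (Cul1), -0.0444 and -0.0442 (Rbx1) and -0.0955 and -0.0949 (Cand1). At a mean count of at least 100 Galk2 was at -0.001 and Cand1 at -0.0067. Leaving out a library moved Cops2 from -0.2271 to 0.1101, Cops4 from -0.1521 to 0.0294, Cops6 from -0.0898 to 0.0501, Cops7a from -0.1192 to 0.1635, Cops7b from -0.0534 to 0.1832, Klhl20 from -0.0288 to 0.5233, Rfng from -0.0622 to 0.1039, Galk2 from -0.0266 to 0.0599, Cspp1 from -0.0797 to 0.0148, Pde6d from -0.0526 to 0.0968, Cand1 from -0.0622 to 0.0861 and Cul5 from -0.0575 to 0.0574. With 6 to 39 counts per library, Cops9 is known within the wide interval given, and 2 libraries per group limit every error here.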
